A study of Mus musculus with 2 samples.

Results

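The nuclear genome encodes most subunits of the mitochondrial respiratory chain and of ATP synthase, and these genes were followed in liver RNA of mice given ortho-toluidine (OTD), an aromatic amine. Members were chosen by symbol alone, as the Nduf genes of complex I, Sdha to Sdhd of complex II, the Uqcr genes of complex III, Cox4 to Cox8 of complex IV and the Atp5 genes of complex V, without assembly factors of the Ndufaf type and without pseudogenes. The rule took 80 of the 15348 genes in the deposited table, of which 37 belonged to complex I, 4 to complex II, 8 to complex III, 14 to complex IV and 17 to complex V. A gene counted as measured at a mean level of at least 10, where a level is the deposited CPM of a gene (its reads scaled to a common library total) divided by a scaling factor of the library. Of the 80 members 75 were measured, among 7602 measured genes in all. The remaining 5 members are described at their low levels with the isoforms.

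Both groups were female mice, aged 16 weeks, of the immunodeficient strain NOG-TKm30. They carry the thymidine kinase of herpes simplex virus (HSVtk) as a mutant cDNA, clone 30, read from the enhancer and promoter of the mouse transthyretin gene, a hepatocyte gene, and this holds for control and OTD mice alike. The OTD group received 0.6% OTD for 1 week and then 0.3% for 3 weeks, 4 weeks in all, and the control group received 0%. How the OTD was given, and in what vehicle, is not stated in the sources used here. The treatment text names C57BL mice, whereas titles, strain label and design text name NOG-TKm30, and the table's column names carry the word Wild, which is not explained. RNA of 3 control mice and of 5 OTD mice was mixed into 1 library per group. With 1 pool per group the spread between mice or pools was not measured, and no test of any difference could be made.

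The control library held 13569189 reads and the OTD library 14685193. Liver identity was plain in both, since all 6 hepatocyte markers were measured, with albumin (Alb) at 81661 in the control pool and 69694 in the OTD pool. The summed level of those 6 markers was 104618 in control and 92030.5 in OTD, a ratio of 0.880, and 5 of the 6 were lower in OTD. Summed markers were also lower for Kupffer cells (283.7 and 260.8, with 5 of 6 genes lower), sinusoidal endothelial cells (401.3 and 374.3, 4 of 6) and stellate cells (705.3 and 669.7, 5 of 6). For cholangiocytes the sum was 46.3 and 43.3, but only Sox9 and Spp1 were lower and the other 4 genes, all at levels under 10, were higher. For erythroid cells the sum was 231.3 and 247.6, with 5 of 6 genes higher. Of the striated muscle and brown adipocyte markers, whose tissues are rich in mitochondria, 0 were measured. Only 1 of 6 muscle markers had values, Ttn at 0.83 and 0.94. Of the 6 brown fat markers 2 had values, Elovl3 and Prdm16, with summed levels of 6.91 and 4.34. Nearly all of that sum was Elovl3 (6.46 and 3.94). The ribosomal RNA precursor Rn45s took 1.47% of control reads and 2.66% of OTD reads. The part of these shifts in the results below was not tested, except where a value with another scaling is given. In bulk liver RNA, fewer cells of a type and less RNA per cell cannot be told apart.

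Complexes I to IV pass electrons from NADH and succinate to oxygen. Complexes I, III and IV pump protons across the inner mitochondrial membrane, and complex V, the ATP synthase, uses the returning protons to make ATP. Each complex except complex II joins nuclear-encoded subunits with a few encoded by mitochondrial DNA. Hepatocytes hold many mitochondria and depend on this system for gluconeogenesis, urea synthesis and fatty acid oxidation.

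Respiratory chain subunit transcripts were slightly lower in the OTD pool than in the control pool, across all 5 complexes and by a small amount. Together the 75 measured members took 0.989% of reads in control and 0.944% in OTD, and their summed level in OTD was 0.919 times that in control (95% exact Clopper-Pearson interval on the split of reads, 0.912 to 0.925). These intervals cover counting error only. The summed level of all 7602 measured genes had a ratio of 0.961. The log2 ratio of OTD over control, computed with a pseudocount of 1, had a median of −0.12 over the members and −0.0063 over all measured genes. It was below 0 for 65 of the 75 members, against 51.6% of all measured genes and 67.4% of the other genes with a principal transcript under 1 kb, the length of most members. Single differences were small: 6 members were at least 1.2-fold lower and 0 at least 1.2-fold higher, where 8.3% of all measured genes were lower and 10.7% higher by that much. By this rule of size the members' share of 1.2-fold lower genes was near that of all genes. No member was 2-fold lower or higher, against 0.21% of measured genes lower and 0.21% higher. The counting interval of the ratio lay wholly below 1 for 43 members and wholly above 1 for 0, where the shares over all measured genes were 19.6% and 18.6%. The other 32 intervals included 1. Genes with more reads have narrower intervals, and the members were more abundant than most genes. Only 19 of the 75 members had a mean level of 10 to 50, against 4699 of the 7527 other genes. The part of level in these interval counts was not tested.

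**Figure D1:**
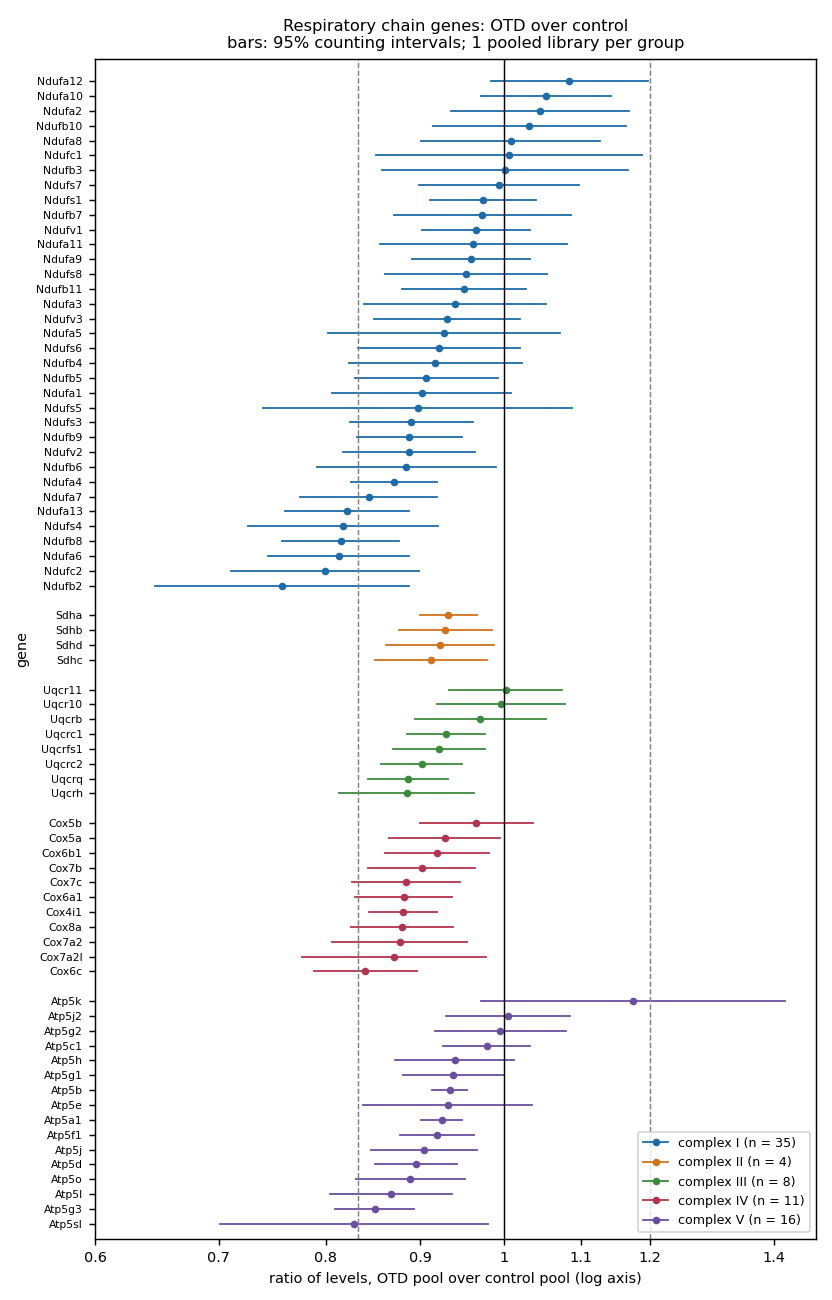
Ratio of levels, OTD pool over control pool, for 74 of the 75 measured members on a log axis, grouped by complex, with 95% counting intervals as bars, equality as the solid line and 1.2-fold as dashed lines; each group is 1 pooled library. Most points lie a little left of equality, 6 complex I points lie left of the 1.2-fold line with Atp5sl at 0.829 (which the pseudocount of the size rule keeps short of 1.2-fold), and Atp5k at 1.17 is the point farthest right.

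The plot of ratios by gene shows how narrow the spread was. Log2 ratios of the members had a standard deviation of 0.10 across genes, against 0.24 over all measured genes. Among the gene lists described below, it was 0.10 for cytosolic ribosomal proteins and 0.089 for citric acid cycle enzymes. Mitochondrial ribosomal proteins had 0.16 and assembly factors 0.18. The median counting error of a member's log2 ratio was 0.056. That error was not computed for the other genes. The members were more abundant than most genes, so these spreads are not matched for level. Of the 75 intervals, 60 held the ratio of the summed level, 0.919, and 15 did not. The order of the members by level was nearly the same in both pools, with a Spearman rho of 0.993 and a Pearson r of 0.996 on log2 levels over the 75 genes, which are not independent replicates and share the 2 libraries. The ratio had little relation to the mean level (rho = −0.149) across the same genes.

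**Figure D2:**
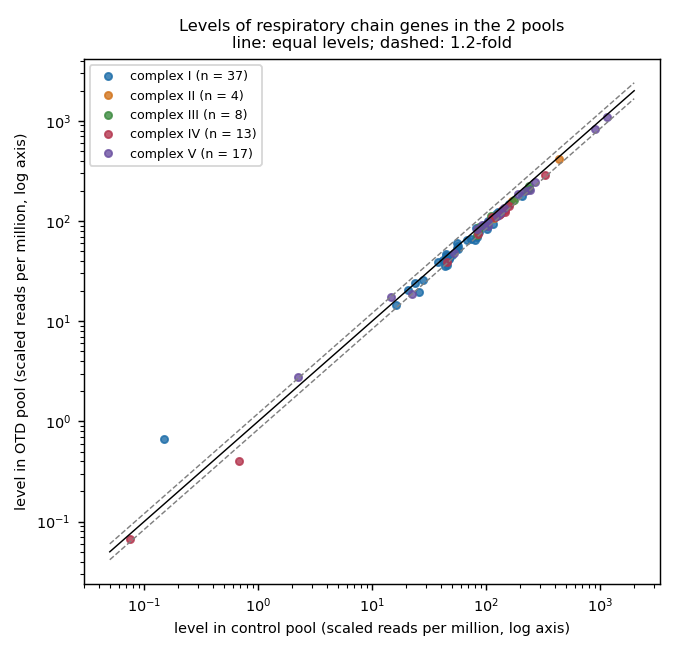
Level in the OTD pool against level in the control pool for 79 members (Cox6b2, at 0 reads in OTD, cannot be drawn on log axes), coloured by complex, with equality as the solid line and 1.2-fold as dashed lines. Nearly all points follow the line of equality, from Atp5k near 15 to Atp5b above 1000, and the few low isoforms below 10 scatter more.

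The plot of levels shows that the members span a wide range, with mean levels of measured members from 15.4 to 1127 and 197 to 16297 reads in a library. Counting error therefore differed between them, and the abundant subunits gave the narrowest intervals.

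Nuclear respiratory factor 1 (NRF1), the ETS factor GABP (also known as NRF-2), YY1, Sp1 at GC boxes and the receptor ERR-alpha are known regulators of these genes, so the promoters of the members were searched for short motifs. Promoters of 64 of the 80 members, 62 of them measured, were found in the RefSeq promoter table (GRCm38.p6), and 5 of the 64 had more than 1 start, of which the first was used. The window ran from 250 bases before to 50 bases after the start, 300 bases in all, and both strands were read. An NRF1-type motif (GCGCNTGCG, which is close to its own reverse complement, so both strands can match at overlapping positions) was present in 21 of the 62 measured members (33.9%), in 15.5% of 5860 promoters of measured genes and in 6.59% of all 27025 promoters. An ETS (GABPA)-type motif (CCGGAAG) was in 15 members (24.2%), 19.4% and 9.12%. The GC box (GGGCGG) was in 24 members (38.7%), 66.6% and 35.9%. A YY1-type motif (AAGATGGCG) was in 6 members (9.68%), 3.94% and 1.49%, and an ERRA-type motif (TCAAGGTCA) in the 2 members Atp5g3 and Sdhd (3.23%), 0.171% and 0.407%. A match is a description of the letters and does not show binding.

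The 250 bases before the start are shown for 5 members, 5′ to 3′ on the strand of the gene, with motif matches on either strand in capitals. Cox6a1 and Sdha are shown as subunits of complexes IV and II with several NRF1-type matches, and Ndufb4 as a complex I subunit with NRF1-type matches and a GC box. Ndufb2 is shown because it had the lowest ratio of all measured members, and Atp5k because it had the highest. In Cox6a1 the capitals also mark GC boxes and 1 ETS (GABPA)-type match. The windows are chr5:115348959-115349208 for Cox6a1, chr13:74350241-74350490 for Sdha, chr16:37654369-37654618 for Ndufb4, chr5:108434400-108434649 for Atp5k, all on the minus strand, and chr6:39592315-39592564 for Ndufb2 on the plus strand (GRCm38.p6). The gene spans annotated in GENCODE reach a little way into the first 4 windows.
Cox6a1: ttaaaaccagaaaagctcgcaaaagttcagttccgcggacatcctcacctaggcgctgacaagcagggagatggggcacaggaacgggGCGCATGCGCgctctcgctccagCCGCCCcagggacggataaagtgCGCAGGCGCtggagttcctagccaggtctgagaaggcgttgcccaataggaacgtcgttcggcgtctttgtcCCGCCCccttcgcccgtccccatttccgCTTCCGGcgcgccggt
Sdha: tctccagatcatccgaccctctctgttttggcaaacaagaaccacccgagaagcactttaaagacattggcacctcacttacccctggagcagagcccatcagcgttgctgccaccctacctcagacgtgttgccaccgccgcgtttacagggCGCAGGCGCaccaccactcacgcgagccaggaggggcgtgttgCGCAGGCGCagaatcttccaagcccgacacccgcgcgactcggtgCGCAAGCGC
Ndufb4: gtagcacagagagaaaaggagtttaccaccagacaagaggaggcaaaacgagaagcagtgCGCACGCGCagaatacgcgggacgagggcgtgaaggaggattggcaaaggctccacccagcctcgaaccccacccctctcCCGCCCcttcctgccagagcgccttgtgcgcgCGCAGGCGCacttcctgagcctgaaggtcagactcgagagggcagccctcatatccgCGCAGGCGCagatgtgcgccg
Atp5k: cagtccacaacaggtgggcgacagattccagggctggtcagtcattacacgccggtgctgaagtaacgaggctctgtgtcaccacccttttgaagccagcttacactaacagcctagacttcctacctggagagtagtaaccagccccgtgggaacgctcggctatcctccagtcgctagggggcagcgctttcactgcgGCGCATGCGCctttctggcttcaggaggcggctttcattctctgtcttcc
Ndufb2: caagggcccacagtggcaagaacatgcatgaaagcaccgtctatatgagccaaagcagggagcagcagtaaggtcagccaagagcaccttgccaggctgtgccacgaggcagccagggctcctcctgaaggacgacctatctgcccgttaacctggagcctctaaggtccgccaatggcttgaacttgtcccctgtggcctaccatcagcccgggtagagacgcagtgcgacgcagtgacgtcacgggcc

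The ratios were set beside the motifs as a description. The 21 measured members with an NRF1-type match had a median log2 ratio of −0.10 (16 of 21 below 0) and the 41 without one −0.12 (37 of 41 below 0). For the ETS (GABPA)-type motif both medians were −0.11, over 15 and 47 members. For the GC box the medians were −0.12 with a match (24 members) and −0.10 without (38 members), and for the YY1-type motif −0.035 with a match (6 members) and −0.12 without (56 members). Atp5k, with the highest ratio, carried NRF1-type matches before its start, and the window of Ndufb2, with the lowest, held none of the 5 motifs. Windows of other members, such as Ndufc2, Ndufv1 and Ndufb3, held none either. Of the 6 members at least 1.2-fold lower, 3 had a GC box (50%, against 38.7% of measured members). Among these 6 only Ndufa6 had an NRF1-type match (33.9% of measured members) and only Ndufs4 a YY1-type match (9.68%).

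Complex I, NADH dehydrogenase, is the largest complex and the entry point of electrons from NADH. Its 36 measured members had a median log2 ratio of −0.11, with 29 below 0, and a summed ratio of 0.918 (0.904 to 0.932). The 6 members past 1.2-fold lower belonged to this complex, a count to be read against the 8.3% of all measured genes, and with the same total Ndufb2 alone was past it. All 6 are supernumerary subunits, as are 28 of the 36 measured members. Supernumerary subunits surround the catalytic core and serve its assembly and stability. Ndufb2, a membrane arm subunit on chromosome 6 (39592574 to 39603382), had levels of 25.9 (control) and 19.6 (OTD), a ratio of 0.758 (0.646 to 0.888). Ndufc2, on chromosome 7 (97400003 to 97407802), had 45.4 and 36.3, a ratio of 0.799 (0.711 to 0.899). Ndufa6, on chromosome 15 (82350140 to 82354322), had 79.9 and 65.0, a ratio of 0.813 (0.745 to 0.888). Ndufa6 belongs to the LYR motif family and binds the mitochondrial acyl carrier protein. The count was completed by Ndufb8, Ndufs4 and Ndufa13, which were named after their values were seen. Ndufb8, often used as a marker of assembled complex I, had 115.5 in control and 94.1 in OTD (0.815, 0.758 to 0.877). Ndufs4, whose loss causes Leigh syndrome, had 44.0 and 36.0 (0.818, 0.726 to 0.921). Ndufa13, also known as GRIM-19, had 101.8 and 83.6 (0.822, 0.760 to 0.888). The level was lower in the OTD pool for each of the 6, and each interval lay below 1. The value nearest the threshold from the other side within complex I was that of Ndufa7, with 82.8 and 69.9, a log2 ratio of −0.24.

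The catalytic core of complex I, which holds the flavin and the iron-sulfur clusters, was lower by less. Its 7 genes were all below 0, with a median log2 ratio of −0.07 and a summed ratio of 0.939 (0.913 to 0.966), while the 28 supernumerary subunits had a median of −0.11, 21 below 0 and a summed ratio of 0.915 (0.898 to 0.932). The intervals of these summed ratios overlap, and the difference between them was not tested. Ndufv1, which binds NADH and flavin, had 123.2 in control and 118.9 in OTD, a ratio of 0.965 (0.902 to 1.03). Ndufv2, its iron-sulfur partner, had 87.2 and 77.4 (0.888, 0.818 to 0.964). Ndufs1, which carries several of the clusters, had 127.8 and 124.4 (0.973, 0.911 to 1.04). Of these 3 genes Ndufv2 alone had an interval below 1. In the module that passes electrons to ubiquinone, Ndufs3 had 99.8 and 88.8 (0.890, 0.825 to 0.962). Ndufs7 and Ndufs8, which carry the last clusters of the chain, had 56.6 and 56.2 (0.993, 0.899 to 1.10) and 56.2 and 53.6 (0.953, 0.862 to 1.05).

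By symbol, 9 of 13 measured Ndufa genes, 8 of 10 Ndufb genes, all 8 Ndufs genes and all 3 Ndufv genes were below 0. The Ndufb genes, which encode subunits of the membrane arm, had a summed ratio of 0.902 (0.875 to 0.929). The genes on the other side were few. Ndufa12, an accessory subunit of the peripheral arm, had 56.0 in control and 60.8 in OTD, a ratio of 1.08 (0.983 to 1.196). Ndufa10 had 81.7 and 86.1 (1.05, 0.971 to 1.14), and Ndufa2 44.5 and 46.5 (1.05, 0.935 to 1.17). Ndufb3, Ndufc1, Ndufa8 and Ndufb10 completed the 7 complex I genes above 0, with log2 ratios from 0.00038 to 0.04. Each of these 7 intervals included 1 as deposited. With both libraries scaled to the same total the intervals of Ndufa12 (1.13, 1.02 to 1.24) and Ndufa10 (1.09, 1.01 to 1.19) lay above 1. The most abundant gene with a complex I symbol was Ndufa4, with 205.8 and 179.4 (0.872, 0.826 to 0.920). Its protein is now placed in complex IV. Its ratio was close to those of most Cox genes, and also to those of complex I genes such as Ndufb6 (0.885) and Ndufv2 (0.888).

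Complex II, succinate dehydrogenase, links the citric acid cycle to the chain and is encoded by nuclear genes only. All 4 genes were lower in the OTD pool, and each interval lay below 1 as deposited, as did those of 19.6% of all measured genes. With the same total all 4 intervals included 1 (Sdha 0.969, 0.935 to 1.004). Sdha, the flavoprotein that oxidizes succinate (chromosome 13, 74322254 to 74350280), had 441.7 in control and 411.8 in OTD, a ratio of 0.932 (0.900 to 0.966). Sdhb, the iron-sulfur subunit, had 168.8 and 156.8 (0.929, 0.877 to 0.985). The membrane anchors that bind heme and ubiquinone followed: Sdhc, on chromosome 1 (171127165 to 171150603), had 117.6 and 107.3 (0.912, 0.851 to 0.979), and Sdhd had 128.8 and 118.9 (0.923, 0.863 to 0.987). The 4 log2 ratios lay between −0.13 and −0.10, and all 4 intervals overlap each other. The summed ratio of the complex was 0.928 (0.904 to 0.952).

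Complex III, the cytochrome bc1 complex, passes electrons from ubiquinol to cytochrome c. Of its 8 genes 7 were below 0 and 5 had an interval below 1, against 51.6% and 19.6% of all measured genes. The summed ratio was 0.926 (0.907 to 0.946). Uqcrfs1, the Rieske iron-sulfur protein, had 175.2 in control and 161.5 in OTD, a ratio of 0.922 (0.870 to 0.976). The core proteins Uqcrc1, the most abundant of the complex, and Uqcrc2 had 238.8 and 222.0 (0.930, 0.885 to 0.976) and 227.9 and 205.6 (0.902, 0.858 to 0.949). The small subunits differed among themselves. Uqcrq, a small subunit of the membrane region (chromosome 11, 53427922 to 53430831), had 237.5 and 210.6 (0.887, 0.844 to 0.932), and Uqcrh, the hinge protein at the cytochrome c side, had 82.8 and 73.3 (0.885, 0.813 to 0.963). Uqcrb, Uqcr10 and Uqcr11 had nearly equal levels in both pools, at 84.6 and 82.1, 87.4 and 87.1, and 111.3 and 111.4, with ratios of 0.970 (0.894 to 1.05), 0.996 (0.920 to 1.08) and 1.00 (0.933 to 1.07).

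Complex IV, cytochrome c oxidase, reduces oxygen to water, and it had the lowest median of the 5 complexes. Its 11 measured members were all below 0 and 10 had an interval below 1, against 51.6% and 19.6% of all measured genes. The median log2 ratio was −0.18 and the summed ratio 0.892 (0.875 to 0.910). That interval overlaps those of complexes I, II and III and not that of complex V (0.925, 0.914 to 0.936). It covers counting error only, and the difference between complexes was not tested. Cox6c, on chromosome 15 (35925886 to 35938246), had the lowest ratio, with 147.1 in control and 123.6 in OTD (0.841, 0.788 to 0.896), a log2 ratio of −0.25 and so just short of 1.2-fold. Cox4i1, the regulatory subunit that binds ATP and the most abundant of the complex (chromosome 8, 120668222 to 120674207), had 327.5 and 288.5 (0.881, 0.844 to 0.919). The ubiquitous or liver-type isoforms Cox6a1, Cox7a2 and Cox8a were close to it, with 159.7 and 140.9 (0.882, 0.830 to 0.937), 84.4 and 74.0 (0.877, 0.807 to 0.954) and 145.7 and 128.3 (0.880, 0.826 to 0.938). Cox7c and Cox7b, small membrane subunits, had 130.2 and 115.2 (0.885, 0.827 to 0.946) and 131.8 and 118.8 (0.902, 0.844 to 0.964). Least different were Cox6b1, on the cytochrome c side, with 139.1 and 127.9 (0.919, 0.862 to 0.981), and the matrix-facing subunits Cox5a and Cox5b. Cox5a had 119.5 and 111.0 (0.928, 0.866 to 0.995), and Cox5b, which binds zinc, had 113.0 and 109.1 (0.965, 0.900 to 1.04). Cox5b alone had an interval that included 1. Cox7a2l, a factor that joins complexes III and IV into supercomplexes rather than a plain subunit, had 45.2 and 39.3 (0.871, 0.776 to 0.978).

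Complex V, the ATP synthase, holds the most abundant members. Its 16 measured genes had a median log2 ratio of −0.11 and a summed ratio of 0.925. Of the 16, 14 were below 0 and 10 had an interval below 1, against 51.6% and 19.6% of all measured genes. In the F1 head, the catalytic beta subunit Atp5b (chromosome 10, 128083273 to 128090391) had 1165 in control and 1089 in OTD, a ratio of 0.934 (0.914 to 0.955). The alpha subunit Atp5a1 had 898.9 and 831.2 (0.925, 0.902 to 0.948). These were the members with the most reads and the narrowest intervals. Of the central stalk, which turns inside the head, Atp5d had 222.2 and 199.0 (0.895, 0.851 to 0.942), Atp5c1 189.6 and 185.5 (0.978, 0.927 to 1.03) and Atp5e 52.0 and 48.4 (0.932, 0.838 to 1.04). All 5 head and central stalk genes were below 0, with a summed ratio of 0.931 (0.917 to 0.945).

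The membrane part and the peripheral stalk of complex V, which form the rotor ring and hold the head in place, had a summed ratio of 0.916 (0.897 to 0.935), with 8 of 10 genes below 0. The c ring is encoded by 3 genes with the same mature protein. Atp5g3 (chromosome 2, 73908447 to 73911326) had 241.8 in control and 205.6 in OTD, a ratio of 0.850 (0.809 to 0.894). Atp5g1 had 143.6 and 134.7 (0.938, 0.881 to 0.999), and Atp5g2 had 84.0 and 83.6 (0.995, 0.917 to 1.08). The most abundant of the 3 was thus the lowest by ratio, with an interval that overlaps that of Atp5g1 and not that of Atp5g2. Summed over the 3 genes the ratio was 0.903 (0.872 to 0.935). In the peripheral stalk, Atp5f1 (subunit b) had 269.5 and 247.8 (0.920, 0.878 to 0.963), Atp5o (OSCP, which ties the stalk to the head) 125.8 and 111.8 (0.889, 0.830 to 0.952) and Atp5j (F6) 132.7 and 120.0 (0.904, 0.846 to 0.966). Subunit d, Atp5h, had 104.1 and 97.8 (0.940, 0.873 to 1.01). Among the small membrane subunits, which take part in pairing ATP synthases, Atp5l (subunit g) had 104.1 and 90.3 (0.868, 0.805 to 0.936), and Atp5j2 (subunit f) had 91.7 and 92.0 (1.00, 0.929 to 1.09). Atp5k (subunit e) stood highest of all measured members, with 14.8 and 17.4 (1.17, 0.971 to 1.42), from 197 and 260 reads. Its interval is wide and includes 1, but with the same total it lay above 1 (1.22, 1.01 to 1.48). Atp5sl, an assembly factor of complex I despite its symbol, had 22.3 and 18.5 (0.829, 0.701 to 0.980). Its log2 ratio of −0.26 with the pseudocount fell just short of 1.2-fold.

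Several subunits have an isoform typical of heart, skeletal muscle, lung or testis, and the 5 members under a mean level of 10 were mostly of this kind. Compared per kilobase of the principal coding transcript, Cox4i1 had a mean level of 408 and its lung isoform Cox4i2 0.097, with 1 read in each library. Cox7a2 stood at 120 and the muscle isoform Cox7a1 at 1.37, with 9 control reads and 6 OTD reads. Cox6b1 stood at 216 and the testis isoform Cox6b2 at 0.204, with 3 reads in control and 0 in OTD, at or under the floor of 3 reads in both libraries. The liver thus held almost only the ubiquitous or liver-type isoform of each pair. Ndufa4l2, a hypoxia-inducible relative of Ndufa4, had 2 reads in control and 10 in OTD, a ratio of 4.45 (0.947 to 41.7), and stood at 0.438 per kilobase against 363 for Ndufa4. Atp5s, a factor of the ATP synthase and not a core subunit, had 30 and 42 reads (ratio 1.24, 0.761 to 2.06). None of these 5 genes had a difference detectable at this depth. The muscle isoforms Cox6a2 and Cox8b were not analysed here.

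On the scale of mean level per kilobase the most abundant members were Atp5b at 588, Cox4i1 at 408, Ndufa4 at 363, Atp5a1 at 350, Atp5g3 at 311 and Cox6a1 at 263, and small subunits such as Uqcr11 at 250 and Cox8a at 249 came next. Core subunits of complex I such as Ndufs1 at 48.0 and Ndufs3 at 90.2 lay lower, with Sdha at 147 and Sdhb at 143 above them. Ndufs4 at 23.6, Ndufs5 at 25.7 and Ndufc1 at 26.4 were among the lowest measured members. Ndufb2 stood at 9.44, where the annotated principal transcript of 2413 bases, long for a small subunit, sets the value. Neighbours in this order have no replicate spread to set them apart.

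Some subunits and carriers are missed by the symbol rule. Cyc1, cytochrome c1 of complex III, had 175.3 in control and 152.2 in OTD (0.868, 0.819 to 0.920), and Cycs, cytochrome c itself, had 81.8 and 69.5 (0.849, 0.779 to 0.925). Usmg5, a small subunit of ATP synthase, had 31.6 and 24.7 (0.781, 0.678 to 0.901). Ndufab1, the acyl carrier protein in complex I, had 47.9 and 44.9 (0.937, 0.839 to 1.05), and Atpif1, the inhibitor of ATP synthase, had 12.8 and 11.6 (0.905, 0.728 to 1.12). All 5 log2 ratios were below 0, with a median of −0.20, while 3 of the 5 intervals lay below 1 and Usmg5 alone was at least 1.2-fold lower. Among all measured genes 19.6% had such an interval and 8.3% were lower by that much. The 13 subunits encoded by mitochondrial DNA were not found in the deposited table under the symbols searched, so they have no values here.

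Assembly factors, which insert cofactors and join subunits, lay on both sides of 0. Of 37 measured factors 20 were below 0 and 17 above, with a median log2 ratio of −0.0059, close to that of all genes. At least 1.2-fold lower were 2 and higher 4, where the shares over all measured genes were 8.3% and 10.7%. By complex the medians were 0.029 for the 9 factors of complex I, −0.0059 for the 5 of complex III and −0.049 for the 19 of complex IV. For the 3 factors of complex V the median was 0.014, and the 1 measured factor of complex II, Sdhaf2, had 0.036. Ndufaf7, a methyltransferase, had 10.8 in control and 14.5 in OTD (1.34, 1.08 to 1.67), while Nubpl, which delivers iron-sulfur clusters to complex I, had 12.9 and 9.9 (0.765, 0.610 to 0.959). For complex IV, Pet100 had 14.4 and 10.2 (0.704, 0.565 to 0.875) and the copper-related factor Cox19 10.4 and 13.1 (1.25, 1.00 to 1.57). The F1 assembly factors Atpaf2 and Atpaf1 had 17.7 and 15.2 (0.859, 0.712 to 1.04) and 13.5 and 15.3 (1.13, 0.926 to 1.38). These are low genes with wide intervals.

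**Figure D3:**
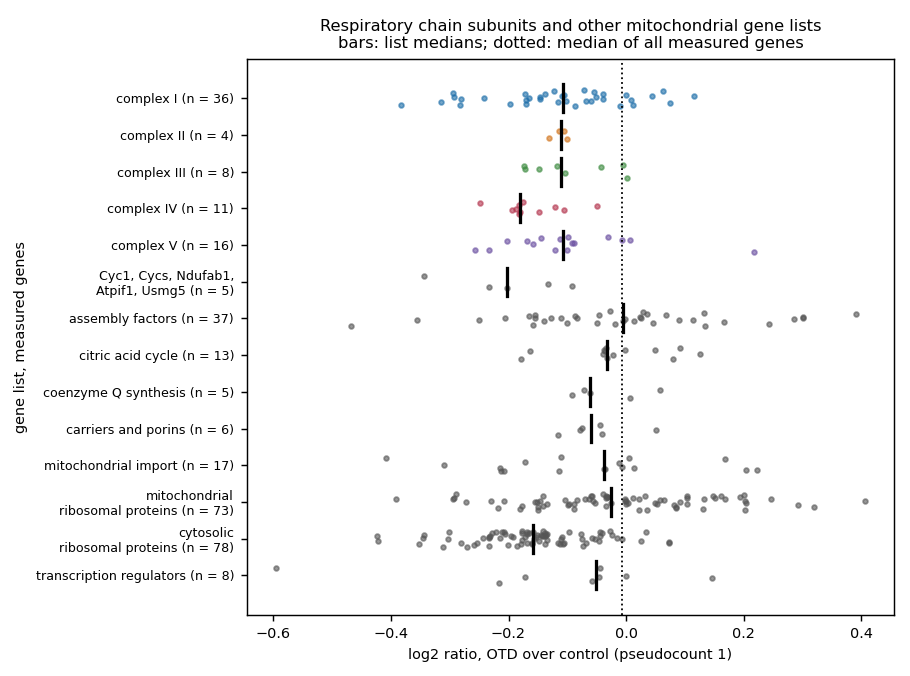
Log2 ratio of OTD over control for each measured gene (points) of the 5 complexes and of other mitochondrial and ribosomal lists, with list medians as bars and the median of all measured genes as the dotted line; each group is 1 pooled library. The 5 complexes and the cytosolic ribosomal proteins lie mostly left of the dotted line, while assembly factors and mitochondrial ribosomal proteins spread to both sides of it.

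The plot of gene lists sets the subunits beside other mitochondrial genes. The 13 enzymes of the citric acid cycle, which feeds the chain, had a median log2 ratio of −0.033, with 9 below 0 and 0 past 1.2-fold. Citrate synthase (Cs), with the highest ratio of the 13, had 126.9 in control and 138.5 in OTD (1.09, 1.02 to 1.16). Suclg1, with the lowest, had 164.0 and 144.8 (0.883, 0.831 to 0.937). These transcript levels do not measure mitochondrial content. Of 73 mitochondrial ribosomal protein genes 40 were below 0, with a median of −0.026, 5 lower and 3 higher by 1.2-fold. Import genes had a median of −0.037 over 17, and among them Tomm20, a receptor of the outer membrane, had 68.4 and 51.3 (0.750, 0.680 to 0.826). Medians were −0.062 over 5 coenzyme Q genes and −0.060 over 6 carriers and porins. The cytosolic ribosomal proteins had a median of −0.16 over 78 genes, with 74 below 0 and 10 at least 1.2-fold lower. Over all measured genes the shares were 51.6% below 0, and 8.3% lower and 10.7% higher by 1.2-fold.

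Known regulators of respiratory chain transcription had no common size of difference. Of 8 measured regulators 7 were below 0, with a median log2 ratio of −0.052. Ppargc1a, the coactivator PGC-1α, had 21.4 in control and 20.7 in OTD (0.967, 0.821 to 1.14). Its relative Pprc1 had 19.7 and 12.7 (0.645, 0.532 to 0.780), the lowest ratio among the measured regulators. Ppargc1b, at a mean under 10 and named after its value was seen, had 11.0 and 6.88 (0.623, 0.480 to 0.807). Also under that mean, Gabpb1 had 7.89 and 9.89 (1.25, 0.969 to 1.63) and Tfb1m 5.41 and 7.01 (1.30, 0.952 to 1.78). Of the factors that bind the promoters, Nrf1, likewise at a mean under 10, had 10.3 and 8.88 (0.863, 0.675 to 1.10). Gabpa had 61.8 and 68.5 (1.11, 1.01 to 1.22), Esrra 20.6 and 18.2 (0.883, 0.744 to 1.05) and Yy1 64.7 and 55.6 (0.859, 0.780 to 0.946). Tfam, which acts on mitochondrial DNA, had 39.5 and 37.9 (0.960, 0.851 to 1.08). Thus among the measured regulators Pprc1 and Yy1 had intervals below 1 and Gabpa one above 1, against 19.6% and 18.6% of all measured genes. Of the regulators under the mean of 10, Ppargc1b alone had an interval that left out 1.

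**Figure D4:**
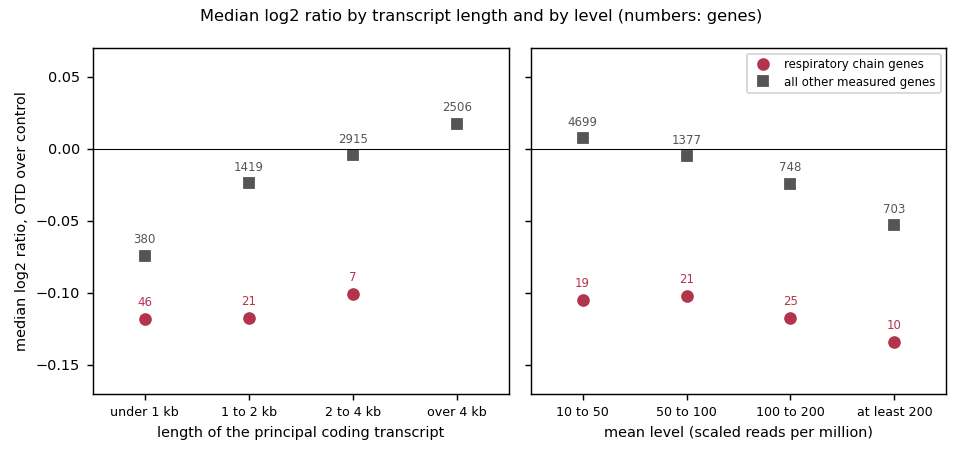
Median log2 ratio of the members (circles) and of all other measured genes (squares) by length of the principal coding transcript (left) and by mean level in scaled CPM (right), with the number of genes beside each point. Other genes have lower medians where transcripts are short or levels high, and the members lie below them in every bin that holds members.

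Short transcripts had lower ratios over the whole table, as the plot by length and level shows, and most subunit transcripts are short. Among principal coding transcripts under 1 kb, the 46 members had a median log2 ratio of −0.12, with 82.6% below 0, and the 380 other genes −0.074, with 67.4% below 0. At 1 to 2 kb the medians were −0.12 for 21 members and −0.024 for 1419 other genes, and at 2 to 4 kb −0.10 for 7 members and −0.0046 for 2915. The members' medians hardly changed with length, and the distance to other genes was smallest where most members lie. By mean level, the medians were −0.10 for 19 members against 0.0074 for 4699 other genes at 10 to 50, and −0.13 for 10 members against −0.053 for 703 at 200 or more. The part of transcript length in the result was not tested beyond these bins.

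Processed pseudogenes of several subunits carry near copies of their transcripts, so reads can be split between a gene and its copies. Of 79 members with an annotated transcript, 62 shared under 10% of their 50-base stretches with other genes, and only Atp5l shared more than 50% (68.5%). Uqcrb (43.2%), Atp5g2 (38.3%), Ndufb4 (37.0%), Atp5h (36.9%) and Ndufs3 (35.8%) followed, and the single values of these genes are less certain than their intervals. Over the 57 measured members with under 10% shared, the median log2 ratio was −0.11, with 49 below 0.

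**Figure D5:**
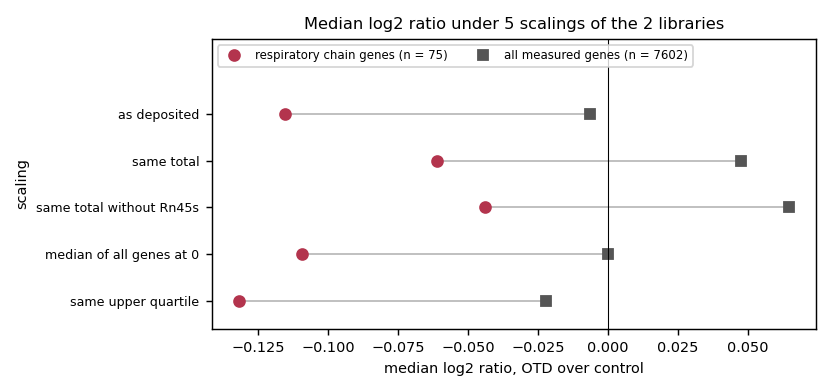
Median log2 ratio of the 75 measured members (circles) and of all 7602 measured genes (squares) under 5 ways of scaling the 2 libraries. Both medians shift together by construction, about 0.11 apart, and the members' own median moves between −0.13 and −0.044.

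How far below equality the members lay depended on how the 2 libraries were scaled, as the plot of scalings shows. The distance to the median of all genes is nearly fixed by construction, since each scaling multiplies every OTD level by 1 factor. As deposited, the members' median was 0.11 below that of all genes on the log2 scale (−0.12 against −0.0063). With both libraries scaled to the same total it was −0.061 against 0.047, and with Rn45s also left out −0.044 against 0.065. Under those scalings 56 and 52 of the 75 members were below 0, against 39.4% and 35.4% of all genes. At 1.2-fold the same total gave 1 member lower (Ndufb2) and 1 higher (Atp5k) in place of 6 and 0, and 5.24% of all genes lower and 14.6% higher. The number of members with an interval wholly below 1 was 24 and 20 in place of 43, and 3 (Ndufa10, Ndufa12 and Atp5k) lay wholly above 1 in place of 0. Shares of such intervals over all measured genes were not computed under these scalings. These counts, and those by complex below, therefore have no background to be read against. By complex, the genes below 0 under these 2 scalings were 25 and 21 of 36 for complex I, 4 and 4 of 4 for II, 5 and 5 of 8 for III, 10 and 10 of 11 for IV and 12 and 12 of 16 for V. With the same total, intervals wholly below 1 numbered 10 for complex I, 0 for II, 2 for III, 6 for IV and 6 for V. The assembly factor and mitochondrial ribosomal protein medians turned to 0.047 and 0.026 with the same total, that of the citric acid cycle to 0.022, and that of the cytosolic ribosomal proteins was −0.10.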

How the data were processed

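The authors deposited 1 normalized signal per gene symbol and library, for 1 control and 1 OTD library built with a strand-keeping kit from 200 ng of pooled, rRNA-depleted total RNA, per the labels' protocols. Per the submitters' processing notes, the tools were edgeR, RSEM, Bowtie2 and Trimmomatic 0.38 on the mm10 build, whose roles and order are not stated. Not given in the sources used here are the annotation release, the gene filter and whether counting kept strand. In both libraries, 100% of the deposited signal values were, within a tolerance of 1e-06, integer multiples of what 1 read is worth, so whole reads were recovered, and the values behaved as CPM divided by 0.981 (control) and 1.02 (OTD). At 3 reads the level was 0.225 (control) or 0.200 (OTD).

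No count test could be run on the recovered reads, since 1 library per group leaves no residual degrees of freedom, so no gene is called by one and no p-value is given. Computed here were log2 ratios with a pseudocount of 1, which understate differences of low genes, over genes with a mean of at least 10. A rule of size (1.2-fold on that scale) stood in for a test, and ratios without pseudocount have 95% intervals (exact Clopper-Pearson, from how the reads split between libraries). The intervals cover counting error only, since 1 library per group gives no spread between pools. Reads without molecular identifiers are not independent molecules, so the intervals can be too narrow even for that error. The ratio method was run on simulated reads that held counting error only. That run cannot speak to the spread between mice, pools or libraries.

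Members, gene lists and thresholds were chosen with earlier results of these data known, and they support nothing by their choice. Named by rule were, in each complex, the most abundant member, the 3 highest and 3 lowest ratios, isoform groups, the catalytic core and all members under a mean of 10, and in other lists the 2 largest log2 ratios and 10 fixed genes. Members named beyond this rule were added to show the remaining values, and 1 member that the rule takes is not reported singly here. Ensembl gene models of GENCODE M21 on GRCm38, the mm10 assembly, gave coordinates and lengths, and RefSeq (GRCm38.p6) gave promoters. The NRF1-type motif was shortened by 1 letter after a first search had been seen. The principal transcript as length, and leaving out members that share sequence, were chosen after seeing the data. Software was scipy 1.17.1, matplotlib 3.10.9, pandas 2.3.3 and numpy 2.4.6 under Python 3.11.15.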

Additional observations from a re-analysis of the deposited data

How the results depend on the processing

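Of 106 values computed for the members' medians, counts and summed ratios under the alternatives, 70 kept their size and 36 moved. All 6 medians (all members and complexes I to V) stayed below 0 under each setting. With a pseudocount of 10 the median over all members was −0.10, and with the same upper quartile −0.13. With both libraries scaled to the same total it was −0.061 over all members, −0.053, −0.055, −0.056, −0.12 and −0.052 for complexes I to V. With Rn45s also left out it was −0.044 over all members and −0.036, −0.038, −0.038, −0.11 and −0.034 for complexes I to V. Summed ratios with the same total were 0.955 over all members and 0.954, 0.964, 0.963, 0.927 and 0.961 for complexes I to V. Without Rn45s they were 0.966 over all members and 0.966, 0.976, 0.974, 0.938 and 0.973, and with the same upper quartile 0.908 over all members. The 6 members at least 1.2-fold lower became 2 with a pseudocount of 10, 3 at a mean of at least 50, 1 with the same total, 1 without Rn45s, 0 at 1.5-fold and 0 at 2-fold. The 0 higher became 1 without a filter on low levels (Ndufa4l2), 1 with the same total and 1 without Rn45s. The scalings, filters and thresholds move these values by their construction. Of 316 values of single members, 304 moved by less than their counting interval and 12 by more, and of 109 medians of 14 other lists, 89 and 20. Without members that share at least 10% of their sequence the median was −0.11.

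No paired analysis was possible because each group has 1 library and no test was made. For the same reason no replicate was left out. Depth limits the low isoforms, and the lack of replicate pools limits every difference.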
